A study of Mus musculus with 12 samples.

Results

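Nuclear receptors are transcription factors that bind DNA directly, and many of them are switched by a small lipid-soluble ligand. The genes described here are 9 of them, Pparg, Ppard, Rxra, Rara, Vdr, Nr3c1, Nr4a1, Nr4a2 and Nr4a3, chosen by name as receptors outside the LXR and REV-ERB groups. They are 9 of the 55487 genes in the count table. All 9 were among the 15801 genes with enough counts to be tested, although Nr4a3 reached that through its counts in LPS libraries.

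The receptors work in a few known arrangements. PPAR, RAR and VDR proteins bind DNA as heterodimers with an RXR protein, and the glucocorticoid receptor (Nr3c1) waits in the cytoplasm on HSP90 chaperones until it binds hormone. The NR4A receptors have no established natural ligand and are known as early-response genes. In macrophages, PPARγ is known for controlling lipid uptake and storage and for restraining inflammatory genes, and the glucocorticoid receptor for repressing them.

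Poly-A-enriched RNA sequencing was done on primary mouse macrophages grown out of bone marrow in medium with 20 ng/mL macrophage colony-stimulating factor. The 4 groups were Fes-/- macrophages given 1 µg/mL lipopolysaccharide (LPS, the bacterial ligand of TLR4) for 4 hours, Fes+/+ (wild-type, WT) macrophages given the same LPS, Fes-/- macrophages with PBS and WT macrophages with PBS. Each group held 3 libraries, and all 12 carried 1 batch date. FES is a cytoplasmic tyrosine kinase of myeloid cells. The control cells are labelled PBS, while the treatment description calls them untreated. The labels give no strain, age or sex. The design text crosses genotype with treatment in 3 mice per genotype. The labels do not say whether libraries with the same number came from the same mouse. The main test treated the 12 libraries as separate, without pairing, so p-values measure the spread between these libraries.

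The libraries held 61016254 to 101027166 counts. Fes averaged 33.8 ± 1.16 CPM (counts after scaling for depth) in Fes-/- LPS macrophages, against 161.8 ± 9.77 in WT LPS macrophages, and 68.6 ± 2.05 in Fes-/- PBS macrophages, against 179 ± 10.2 in WT PBS macrophages (SD, n = 3 each). All 9 macrophage markers were tested and their summed level was 17200 to 39640 TPM (the level per transcript length), while the adipocyte markers, of interest because Pparg is an adipocyte gene, summed to at most 0.158 TPM. The labels do not say which part of Fes was targeted, so its remaining reads do not test the allele. The CPM scale uses TMM factors, which were 0.707 to 0.737 in LPS libraries and 1.35 to 1.40 in PBS libraries, so levels between treatments depend on the scaling. With TMM the median log2 fold change of all tested genes, LPS over PBS, was -0.08 in Fes-/- and -0.07 in WT, and with the library total alone it was -1.01 in Fes-/- and -0.98 in WT.

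LPS against PBS was the comparison in which the receptors moved. By edgeR's quasi-likelihood test with Benjamini-Hochberg adjustment over all genes, 8 of the 9 were called in Fes-/- macrophages at an adjusted p under 0.05, 3 higher and 5 lower, against a background of 73.2% of all genes called (34.3% higher, 38.9% lower). In WT macrophages all 9 were called, 3 higher and 6 lower, against a background of 73.4% (34.6% higher, 38.8% lower). With the library total in place of TMM, 18.5% of called genes in Fes-/- and 19.2% in WT were higher with LPS, against 46.9% in Fes-/- and 47.1% in WT with TMM. The share of receptors called is thus not far from that of genes at large. Nr3c1, Nr4a2 and Nr4a3 were higher with LPS and Pparg, Ppard, Rxra, Rara, Vdr and Nr4a1 lower, and these signs were the same under every scaling tried, the library total and TPM included. The 9 members' median log2 fold change was -0.44 in Fes-/- and -0.66 in WT with TMM, against -1.38 in Fes-/- and -1.57 in WT with the library total. No library with LPS overlapped a PBS library of the same genotype for any of the 9, where 77.2% of all genes in Fes-/- (36.3% higher, 41% lower) and 75.3% in WT (35.4% higher, 39.8% lower) did not overlap. Nr4a3 passed the filter on low counts through its LPS libraries, so its rise and its lack of overlap were fixed in advance. It therefore lends no weight to the calls, the medians or the overlap given here. In bulk RNA, fewer cells of a type and less RNA per cell cannot be told apart.

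**Figure D1:**
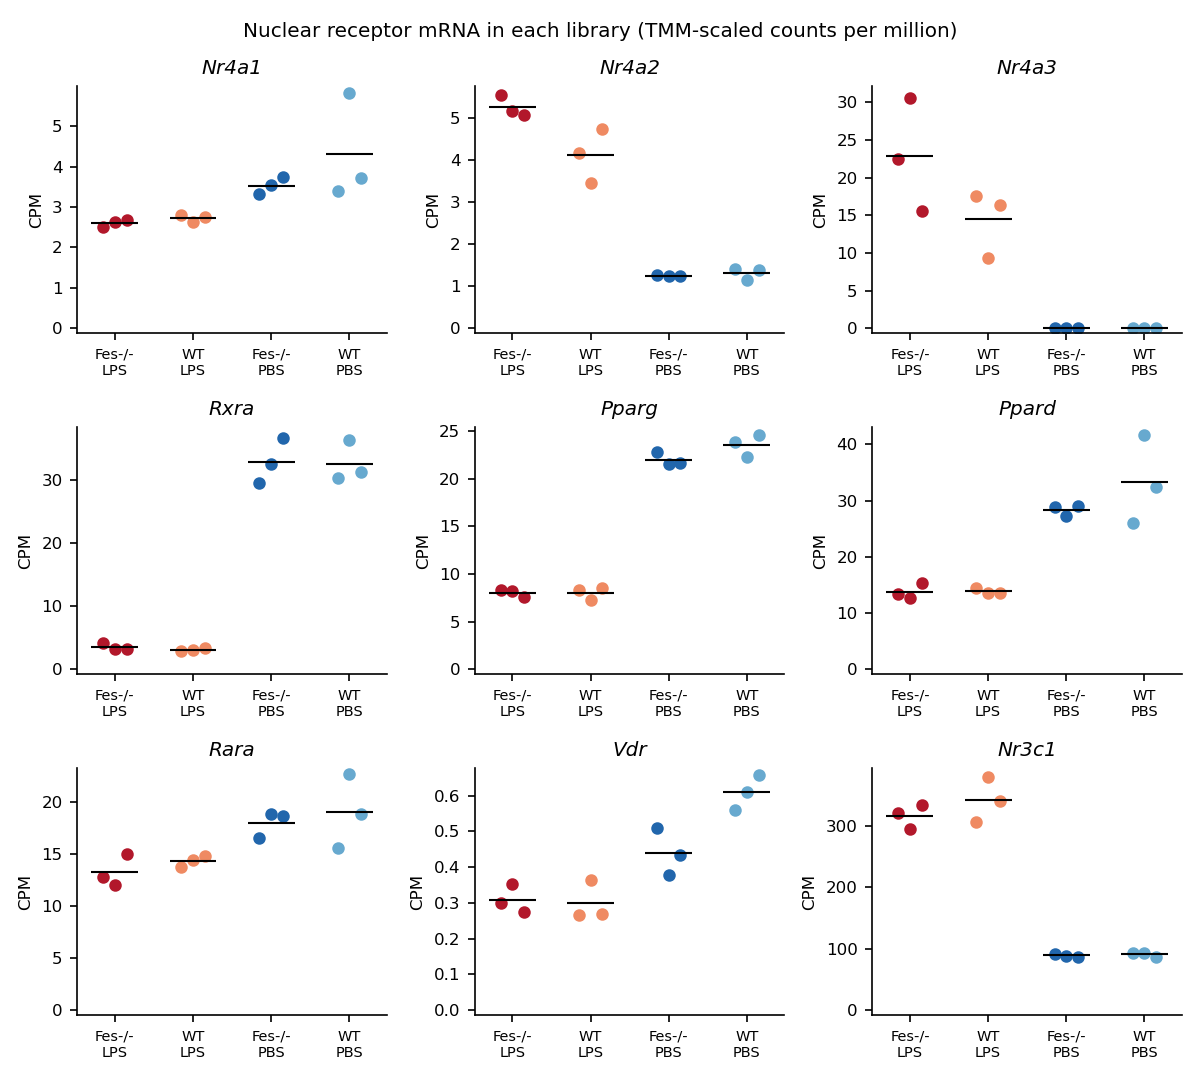
Level of each of the 9 receptors in CPM (linear axis, from 0) in the 3 libraries of each group, in the order Fes-/- LPS, WT LPS, Fes-/- PBS, WT PBS. Each point is a library and each line the mean of 3. Nr3c1, Nr4a2 and Nr4a3 sit higher with LPS and the other 6 lower, with no overlap between treatments within a genotype.

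The NR4A genes are shown with promoter sequence because all 3 of them hold repeats of 1 short motif, the core of the cyclic AMP response element (CRE), the element bound by CREB. The core site searched was TGACG on either strand, printed in capitals and reading CGTCA where it lies on the other strand. The window was the 250 bases before the RefSeq start on GRCm38.p6, and each stretch runs from the 5′ end of the window, on the gene's own strand, to just past its last core site. The stretches lie at chr15:101266596-101266815 (plus strand) for Nr4a1, chr2:57124105-57124253 (minus strand) for Nr4a2 and chr4:48045055-48045167 (plus strand) for Nr4a3.
Nr4a1: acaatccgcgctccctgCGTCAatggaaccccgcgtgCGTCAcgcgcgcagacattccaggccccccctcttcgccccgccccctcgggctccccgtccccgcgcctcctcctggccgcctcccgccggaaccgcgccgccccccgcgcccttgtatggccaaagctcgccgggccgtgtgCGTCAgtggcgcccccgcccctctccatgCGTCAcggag
Nr4a2: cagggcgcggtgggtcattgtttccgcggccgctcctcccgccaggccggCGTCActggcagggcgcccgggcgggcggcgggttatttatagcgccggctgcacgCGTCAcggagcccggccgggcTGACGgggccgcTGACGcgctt
Nr4a3: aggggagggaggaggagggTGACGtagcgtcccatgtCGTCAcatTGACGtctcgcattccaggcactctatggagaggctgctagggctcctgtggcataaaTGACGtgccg
Each of the 3 stretches holds 4 core sites, at -233, -213, -69 and -40 from the start in Nr4a1, at -200, -144, -123 and -111 in Nr4a2 and at -231, -213, -205 and -147 in Nr4a3. At least 4 core sites occurred in 45 of 32851 RefSeq mouse promoter windows of that length (0.137%), and at least 1 in 5836 (17.8%). The full element TGACGTCA, the AP-1 motif TGANTCA and an NF-κB motif matched none of the 3 windows. The SP1 box GGGCGG had 3 sites in the Nr4a1 window, 4 in that of Nr4a2 and 1 in that of Nr4a3, and 32.7% of all windows held at least 1. A TATA box (TATAAA) had 1 site in the Nr4a2 window and 0 in the others, where 12.4% of all windows held at least 1. Promoters were found for 8 of the 9 receptors, and outside the NR4A genes the only core site was 1 in 1 of the 4 Rara promoters. The Nr4a1 stretch lies within the GENCODE span of the gene, which starts further upstream, and 15 bases of the Nr4a3 stretch lie in a GENCODE exon. A match is a description of the letters and was not tested for binding.

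Nr4a3 (NOR1, ENSMUSG00000028341, GRCm38 chr4:48045153-48086447, plus strand) had almost no reads with PBS and a clear transcript with LPS. It had 1648, 1736 and 736 counts in the Fes-/- LPS libraries, against 0, 2 and 0 in the Fes-/- PBS libraries. In WT it had 790, 436 and 793 counts with LPS, against 4, 7 and 6 with PBS. The 6 LPS libraries all stood far above the 6 PBS libraries. The summed counts gave an LPS-to-PBS ratio, after scaling, of 3133 in Fes-/- (95% exact interval 866.9 to 25880, from 4120 against 2 counts) and of 237.5 in WT (147.9 to 408.4, from 2019 against 17 counts). These intervals cover counting error only. Having passed the filter on low counts through its LPS libraries, Nr4a3 had to be higher with LPS. Its call and its lack of overlap are descriptions and lend no support to the count of receptors called or not overlapping.

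Nr4a2 (NURR1, ENSMUSG00000026826, chr2:57106830-57124003, minus strand) also rose. It had 5.54, 5.16 and 5.07 CPM in Fes-/- LPS macrophages, against 1.27, 1.23 and 1.23 CPM in Fes-/- PBS macrophages. WT macrophages had 4.16, 3.44 and 4.73 CPM with LPS, against 1.41, 1.14 and 1.39 CPM with PBS. The log2 fold change was 2.08 ± 0.15 (SE, adjusted p = 1.31e-08) in Fes-/-, a 4.22-fold rise, and 1.64 ± 0.16 (adjusted p = 1.91e-07) in WT, a 3.12-fold rise. With the library total alone the log2 fold change was 1.14 in Fes-/- and 0.73 in WT, so the direction held and the size did not.

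Nr4a1 (NUR77, ENSMUSG00000023034, chr15:101254269-101274795, plus strand), the best known early-response gene of the family, went the other way at 4 hours. It had 2.50, 2.63 and 2.69 CPM in Fes-/- LPS macrophages, against 3.31, 3.54 and 3.74 CPM in Fes-/- PBS macrophages. In WT it had 2.80, 2.63 and 2.76 CPM with LPS, against 3.40, 5.83 and 3.71 CPM with PBS, where the second PBS library was far above the other 2. LPS changed Nr4a1 by -0.44 ± 0.18 on the log2 scale (adjusted p = 0.0435) in Fes-/- and -0.66 ± 0.18 (adjusted p = 0.00497) in WT. Without WT PBS replicate 2 the WT value was -0.37 (adjusted p = 0.036). The Fes-/- call was lost under 10 settings, among them RLE factors (adjusted p = 0.0723), DESeq2 (0.0763) and leaving out any 1 of the 6 Fes-/- libraries (0.0685 to 0.116).

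The make-up of the NR4A family differed between LPS and PBS, and shares within a library do not depend on the scaling between libraries. They are given as descriptions, without a test. Summed over the 3 genes, the level was 14.3 ± 2.96 TPM in Fes-/- LPS and 10.2 ± 2.25 in WT LPS macrophages, against 6.31 ± 0.132 in Fes-/- PBS and 7.26 ± 1.62 in WT PBS macrophages (SD, n = 3 each). Nr4a1 made up 13.1 ± 3.13% of it in Fes-/- LPS macrophages, against 76.5 ± 1.41% in Fes-/- PBS macrophages. In WT it made up 19.1 ± 4.04% with LPS, against 77.7 ± 6.35% with PBS. Nr4a3 held 64.1 ± 7.70% with LPS in Fes-/- and 56.5 ± 6.39% with LPS in WT, and under 1% in every PBS library. The share of Nr4a2 stayed between 21.7% and 24.4% in the 4 group means.

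**Figure D2:**
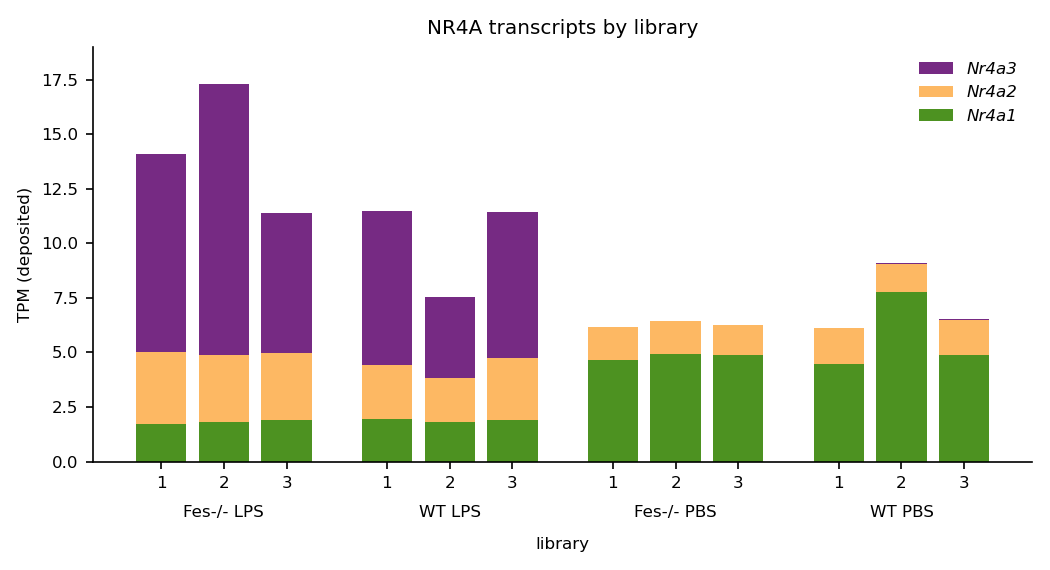
Deposited TPM of Nr4a1, Nr4a2 and Nr4a3 stacked for each of the 12 libraries, from Fes-/- LPS on the left to WT PBS on the right. Nr4a1 fills most of each PBS bar and Nr4a3 between 49.3% and 71.7% of each LPS bar, and WT PBS library 2 has the highest Nr4a1.

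Among the heterodimer receptors, Rxra (RXRα, ENSMUSG00000015846, chr2:27676440-27762957, plus strand), a common partner, had the largest fold change in both genotypes. It had 4.15, 3.14 and 3.26 CPM in Fes-/- LPS macrophages, against 29.5, 32.4 and 36.7 CPM in Fes-/- PBS macrophages. WT macrophages had 2.94, 3.08 and 3.30 CPM with LPS, against 30.3, 36.2 and 31.2 CPM with PBS. The LPS and PBS libraries were widely separated in both genotypes. LPS changed Rxra by -3.22 ± 0.12 on the log2 scale (adjusted p = 8.83e-12) in Fes-/-, 9.30-fold lower, and -3.39 ± 0.13 (adjusted p = 6.78e-12) in WT, 10.5-fold lower. Scaled by the library total it was -4.15 in Fes-/- and -4.30 in WT.

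Rxra was the minor RXR transcript. Rxrb, chosen for naming after its values were seen, encodes RXRβ and had 22.04 ± 0.790 CPM in Fes-/- LPS macrophages, against 52.5 ± 5.91 in Fes-/- PBS macrophages (log2 fold change -1.25, adjusted p = 4.45e-09). It had 22.2 ± 0.201 CPM in WT LPS macrophages, against 55.2 ± 3.89 in WT PBS macrophages (-1.31, adjusted p = 2.76e-09). Rxrg had 0 counts. The summed RXR level was 14.9 ± 0.297 TPM in Fes-/- LPS and 14.7 ± 0.208 in WT LPS macrophages, against 88.3 ± 5.77 in Fes-/- PBS and 88.4 ± 7.12 in WT PBS macrophages. TPM is scaled to each library's total, so this fall is larger than on the TMM scale. Scaled that way, the log2 fold change of Rxrb was -2.19 in Fes-/- and -2.22 in WT. Rxrb made up 90.9% of it in Fes-/- LPS and 91.9% in WT LPS macrophages, against 71.6% in Fes-/- PBS and 72.9% in WT PBS macrophages.

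Pparg (PPARγ, ENSMUSG00000000440, chr6:115360951-115490399, plus strand), the lipid-sensing receptor, fell in both genotypes. It had 8.32, 8.16 and 7.59 CPM in Fes-/- LPS macrophages, against 22.8, 21.5 and 21.7 CPM in Fes-/- PBS macrophages. In WT it had 8.34, 7.21 and 8.52 CPM with LPS, against 23.9, 22.2 and 24.5 CPM with PBS. The log2 fold change was -1.45 ± 0.09 (adjusted p = 1.17e-09) in Fes-/-, 2.74-fold lower, and -1.55 ± 0.09 (adjusted p = 6.01e-10) in WT, 2.93-fold lower. The library total gave larger falls for Pparg, -2.39 in Fes-/- and -2.46 in WT. Gm44079, on the strand opposite Pparg, shares no exon base with it and had 4 counts in all.

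Ppard (PPARδ, ENSMUSG00000002250, chr17:28232700-28301474, plus strand), the more widely expressed PPAR, fell as well. It had 13.3, 12.7 and 15.4 CPM in Fes-/- LPS macrophages, against 28.8, 27.2 and 29.0 CPM in Fes-/- PBS macrophages. WT macrophages had 14.5, 13.5 and 13.6 CPM with LPS, against 26.0, 41.7 and 32.4 CPM with PBS. The log2 fold change was -1.04 ± 0.13 (adjusted p = 5.78e-06) in Fes-/- and -1.27 ± 0.13 (adjusted p = 7.45e-07) in WT, where WT PBS replicate 2 was again the highest library and leaving it out gave -1.06. The library total gave -1.98 in Fes-/- and -2.18 in WT.

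Rara (RARα, ENSMUSG00000037992, chr11:98927818-98974942, plus strand), a retinoic acid receptor, fell by little with TMM scaling. It had 12.8, 11.99 and 15.0 CPM in Fes-/- LPS macrophages, against 16.5, 18.8 and 18.6 CPM in Fes-/- PBS macrophages. In WT it had 13.8, 14.4 and 14.8 CPM with LPS, against 15.6, 22.7 and 18.8 CPM with PBS. The groups did not overlap but lay close. LPS changed Rara by -0.44 ± 0.13 on the log2 scale (adjusted p = 0.00552) in Fes-/- and -0.41 ± 0.13 (adjusted p = 0.00926) in WT, and without WT PBS replicate 2 the WT value was -0.25 and no longer called (adjusted p = 0.0667). With the library total it was -1.38 in Fes-/- and -1.32 in WT, so most of the size of this fall depends on the scaling.

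Vdr (the vitamin D receptor, ENSMUSG00000022479, chr15:97854425-97910630, minus strand) was barely expressed. It had 22, 20 and 13 counts in the Fes-/- LPS libraries, against 44, 37 and 37 in the Fes-/- PBS libraries. WT macrophages had 12, 17 and 13 counts with LPS, against 58, 53 and 59 with PBS. Scaled for depth the libraries did not overlap in either genotype, the LPS ones being lower. The log2 fold change of -0.50 ± 0.28 in Fes-/- was not called with TMM (95% interval -1.09 to 0.09, adjusted p = 0.112), but it was with the library total (-1.43, adjusted p = 0.000169). In WT it was -1.02 ± 0.28 (adjusted p = 0.00406). The WT and Fes-/- effects were not shown to differ (difference 0.52, 95% interval -0.33 to 1.36).

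The balance of RXR transcripts and the partners summed here differed with LPS. Pparg, Ppard, Rara and Vdr summed to 18.7 ± 1.25 TPM in Fes-/- LPS and 19.1 ± 0.782 in WT LPS macrophages, against 74.1 ± 2.37 in Fes-/- PBS and 78.4 ± 7.60 in WT PBS macrophages. The ratio of RXR TPM to this sum, a quantity within a library, was 0.800 ± 0.067 in Fes-/- LPS and 0.770 ± 0.021 in WT LPS macrophages. It was 1.19 ± 0.107 in Fes-/- PBS and 1.13 ± 0.031 in WT PBS macrophages. Every LPS library had a lower ratio than every PBS library. The ratio depends on the partners counted, and no other set of partners was tried. Rarg, another RAR gene, named after its values were seen, was not in the sum. It had 8.25 TPM in Fes-/- LPS and 8.10 in WT LPS macrophages, against 28.0 in Fes-/- PBS and 31.8 in WT PBS macrophages. With TMM its log2 fold change was -0.78 in Fes-/- and -1.03 in WT.

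Nr3c1 (the glucocorticoid receptor, ENSMUSG00000024431, chr18:39410545-39519421, minus strand) was the most abundant of the 9 receptors in all 12 libraries and rose with LPS. It had 320.3, 295 and 335 CPM in Fes-/- LPS macrophages, against 91.5, 88.3 and 87.2 CPM in Fes-/- PBS macrophages. In WT it had 307, 379 and 340.3 CPM with LPS, against 93.7, 92.4 and 86.0 CPM with PBS. No LPS library came near a PBS library. LPS changed Nr3c1 by 1.83 ± 0.08 on the log2 scale (adjusted p = 5.57e-11) in Fes-/-, a 3.56-fold rise, and 1.92 ± 0.08 (adjusted p = 3.45e-11) in WT, a 3.77-fold rise. With the library total these were 0.90 in Fes-/- and 1.00 in WT.

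In TPM, which allows genes to be compared with each other, Nr3c1 took 74.5 ± 2.34% of the 9 receptors' sum in Fes-/- LPS macrophages, against 34.5 ± 1.23% in Fes-/- PBS macrophages. In WT it took 77.8 ± 3.25% with LPS, against 33.4 ± 2.58% with PBS. Its ratio to Pparg was 15.2 ± 1.56 in Fes-/- LPS and 16.5 ± 3.22 in WT LPS macrophages, against 1.55 ± 0.019 in Fes-/- PBS and 1.48 ± 0.127 in WT PBS macrophages. These shares moved the same way in both genotypes and their libraries did not overlap between treatments. Among all 45 receptor genes listed here, Nr3c1 took 49.9% in Fes-/- LPS and 52.6% in WT LPS macrophages, against 15.3% in Fes-/- PBS and 14.7% in WT PBS macrophages.

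The order of levels also changed with LPS. In Fes-/- LPS macrophages Nr3c1 (100.5 ± 7.25 TPM) stood first, followed by Nr4a3 (9.30 ± 3.00), Rara (7.42 ± 0.963) and Pparg (6.64 ± 0.243), whose libraries overlapped, and then by Ppard, Nr4a2, Nr4a1, Rxra and Vdr. In WT LPS macrophages Nr3c1 (108 ± 10.9 TPM) was followed by Rara (7.94 ± 0.311) and then by Pparg (6.58 ± 0.627), Nr4a3 (5.83 ± 1.83) and Ppard (4.45 ± 0.187), where Nr4a3 overlapped both of the others. With PBS the order in Fes-/- was Nr3c1 (55.6 ± 3.23 TPM), Pparg (35.9 ± 2.14), Rxra (25.0 ± 1.86), then Rara (19.8 ± 1.27) and Ppard (18.1 ± 0.647), which overlapped. In WT it was Nr3c1 (54.7 ± 2.62 TPM), Pparg (37.1 ± 1.73), Rxra (24.0 ± 2.47), Ppard (20.6 ± 4.94) and Rara (20.3 ± 3.87), the last 3 of which stood close, with Ppard overlapping both. Nr4a1, Nr4a2, Vdr and Nr4a3 followed in both genotypes with PBS. Rxra was thus the eighth of the 9 in both LPS groups and the third in both PBS groups.

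**Figure D3:**
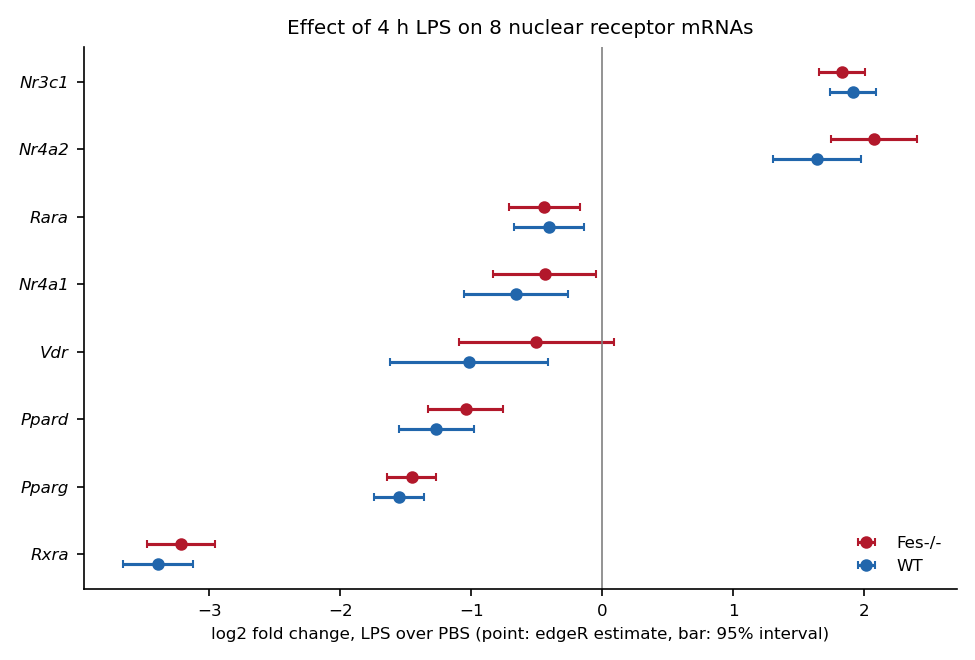
Log2 fold change of LPS over PBS for 8 receptors in Fes-/- and WT macrophages, with 95% intervals from edgeR's quasi-likelihood fit. Nr4a3 is left out because its PBS counts are near 0. Nr3c1 and Nr4a2 lie above 0, and in Fes-/- the Vdr interval (-1.09 to 0.09) crosses it.

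Fes-/- macrophages were compared with WT under each treatment, and no receptor was called by edgeR with the filter on low counts. Under LPS 0 of the 9 were called by edgeR (2 at an unadjusted p under 0.05, 0 by DESeq2), where 0.108% of all genes were called and 6.52% had an unadjusted p under 0.05. Under PBS 0 of the 9 were called (0 at an unadjusted p under 0.05, 0 by DESeq2), where 0.0823% of all genes were called and 3.83% had an unadjusted p under 0.05. For the difference of the LPS effects, Fes-/- minus WT, 0 of the 9 were called (1 unadjusted, 0 by DESeq2), where 0.019% of all genes were called and 2.94% had an unadjusted p under 0.05. That 1 was Nr4a3 (adjusted p = 1 by edgeR), whose PBS counts were near 0.

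The 2 receptors with a low unadjusted p under LPS were Nr4a2 and Nr4a3. Nr4a2 averaged 5.26 ± 0.248 CPM in Fes-/- LPS macrophages, against 4.11 ± 0.643 CPM in WT LPS macrophages (SD, n = 3 each), a log2 difference of 0.36 ± 0.15 (95% interval 0.03 to 0.68, adjusted p = 0.745). Each Fes-/- library was above each WT library, as was true of 5.78% of all genes (5.63% lay the other way, 11.4% in all). Nr4a3 averaged 22.9 ± 7.56 CPM in Fes-/- LPS macrophages, against 14.5 ± 4.47 CPM in WT LPS macrophages, a log2 difference of 0.66 ± 0.26 (0.09 to 1.24, adjusted p = 0.730), and its libraries overlapped. The 7 dendritic cell markers, 6 of them tested, summed to 3.18 to 3.82 TPM in Fes-/- LPS libraries, against 1.88 to 2.83 TPM in WT LPS libraries, with Cd209a at 0 counts in all of them. In each LPS group 6 of the 7 averaged under 1 TPM, so the sum rests on low levels. The part of these markers in either difference was not tested.

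Under PBS, Nr4a3 had 2 counts in the 3 Fes-/- libraries together, against 17 in the 3 WT libraries, a ratio after scaling of 0.122 (95% exact interval 0.0137 to 0.514, counting error only, adjusted p = 0.9745). Vdr was lower in each Fes-/- PBS library than in each WT PBS library, with a log2 difference of -0.47 ± 0.25 (95% interval -1.003 to 0.06, adjusted p = 0.9745). These 2 were the only members whose PBS libraries did not overlap between genotypes, where 6.82% of all genes did not (3.8% lower and 3.03% higher in Fes-/-). At these counts a difference is near the limit of detection. Neutrophil markers summed to 23.3 to 30.3 TPM in Fes-/- PBS libraries, against 32.9 to 45.04 TPM in WT PBS libraries (6 of 9 tested, with Retnlg at 0 counts in Fes-/- PBS and Ly6g in WT PBS), and their part was not tested.

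For the other receptors the intervals limit how large a genotype difference could have gone unseen. Under LPS the log2 difference, Fes-/- minus WT, was -0.11 for Nr3c1 (95% interval -0.29 to 0.07), 0.00 for Pparg (-0.19 to 0.20) and 0.19 for Rxra (-0.10 to 0.47). It was -0.01 for Ppard (-0.30 to 0.29), -0.11 for Rara (-0.39 to 0.16), -0.07 for Nr4a1 (-0.48 to 0.34) and 0.05 for Vdr (-0.61 to 0.70). Vdr, with few counts, had the widest of these intervals. Under PBS it was -0.03 for Nr3c1 (-0.21 to 0.15), -0.10 for Pparg (-0.28 to 0.08), 0.01 for Rxra (-0.22 to 0.25), -0.23 for Ppard (-0.52 to 0.05), -0.08 for Rara (-0.35 to 0.18), -0.29 for Nr4a1 (-0.67 to 0.09) and -0.08 for Nr4a2 (-0.42 to 0.26). For Nr4a2 the LPS effect was larger in Fes-/- by 0.44, with an interval that includes 0 (-0.03 to 0.91).

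**Figure D4:**
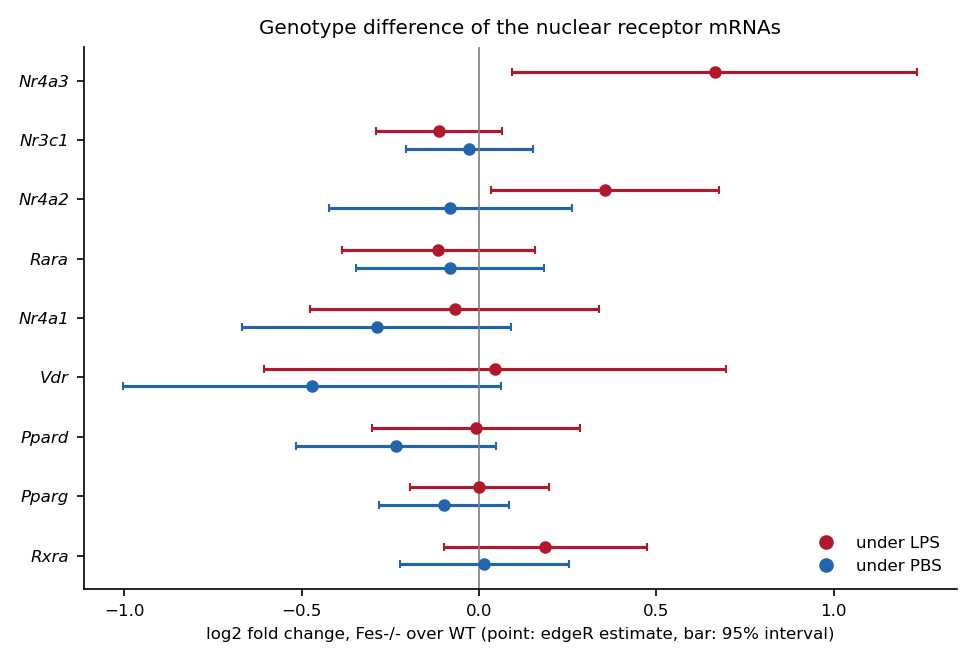
Log2 difference of Fes-/- against WT for the 9 receptors under LPS and under PBS, with 95% intervals from edgeR. Nr4a3 is shown under LPS but not under PBS, where it had 2 counts in Fes-/- and 17 in WT. Nr4a2 and Nr4a3 under LPS have intervals above 0 (0.03 to 0.68 and 0.09 to 1.24), and no value was called after adjustment.

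Of 36 further nuclear receptor genes, 12 were expressed enough to be tested. With LPS 1 rose and 9 fell in both Fes-/- and WT macrophages, and with the library total 0 rose, 11 falling in Fes-/- and all 12 in WT. The median log2 fold change was -1.32 in Fes-/- and -1.25 in WT. For these and the lists that follow, the shares over all genes were 34.3% higher and 38.9% lower in Fes-/- and 34.6% higher and 38.8% lower in WT, with medians of -0.08 in Fes-/- and -0.07 in WT. Rora, a lipid-binding receptor with a role in circadian control, had 1.73 ± 0.406 CPM in Fes-/- LPS macrophages, against 11.5 ± 0.131 in Fes-/- PBS macrophages, and 1.15 ± 0.208 CPM in WT LPS macrophages, against 13.4 ± 2.94 in WT PBS macrophages (log2 fold change -2.73 in Fes-/- and -3.54 in WT). Nr2c2, the orphan receptor TR4, had a log2 fold change of -2.19 in Fes-/- and -2.27 in WT. Nr2f6, an orphan receptor of the COUP-TF group, had a log2 fold change of -1.96 in Fes-/- and -1.95 in WT. The riser with TMM was Esrra, which encodes the oestrogen-related receptor of mitochondrial genes and was named after its values were seen (0.84 in Fes-/-, 0.75 in WT), and its sign turned with the library total (-0.09 in Fes-/-, -0.16 in WT).

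Receptor cofactors moved in both directions. Of 10 co-repressor genes 3 rose and 6 fell in each genotype, and with the library total 2 rose and 7 fell in Fes-/- and 1 rose and 8 fell in WT. Their median log2 fold change was -0.51 in Fes-/- and -0.53 in WT. Lcor, a ligand-dependent co-repressor, rose (1.74 in Fes-/-, 1.71 in WT), while Hdac7, a histone deacetylase (-2.43 in Fes-/-, -1.97 in WT), and Sin3a, a scaffold of deacetylase complexes (-1.97 in Fes-/-, -1.76 in WT), fell. Of 13 co-activator genes tested 6 rose and 4 fell in each genotype, and with the library total 3 rose and 10 fell in Fes-/- and 3 rose and 7 fell in WT. The co-activator median was 0.31 in Fes-/- and 0.23 in WT with TMM, and -0.63 in Fes-/- and -0.69 in WT with the library total. Ppargc1b, the PPARγ co-activator PGC-1β, had 9.07 ± 0.629 CPM in Fes-/- LPS macrophages, against 1.67 ± 0.139 in Fes-/- PBS macrophages, and 7.22 ± 0.874 CPM in WT LPS macrophages, against 1.54 ± 0.393 in WT PBS macrophages. Kat2b, the acetyltransferase PCAF, rose (1.73 in Fes-/-, 1.73 in WT), and Ncoa4, better known as the ferritin autophagy receptor, fell (-1.70 in Fes-/-, -1.66 in WT).

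Known target genes of the PPAR receptors moved in both directions. Of 16 PPAR target genes tested, 6 rose and 4 fell in Fes-/- and 5 rose and 4 fell in WT, with a median log2 fold change of 0.16 in Fes-/- and 0.09 in WT. With the library total 1 rose and 14 fell in each genotype, with a median of -0.77 in Fes-/- and -0.83 in WT, so the direction of this list depends on the scaling. Fabp4, a fatty acid carrier and the one riser under both scalings, had 21.2 ± 2.60 CPM in Fes-/- LPS macrophages, against 2.34 ± 1.07 in Fes-/- PBS macrophages, and 22.4 ± 4.27 CPM in WT LPS macrophages, against 3.70 ± 1.11 in WT PBS macrophages. Etfdh, of mitochondrial electron transfer, had a log2 fold change of -0.40 in Fes-/- and -0.49 in WT. The largest change of the list was a fall of Angptl4, which lay below 5 CPM and was named after its values were seen. Its log2 fold change was -4.57 in Fes-/- (adjusted p = 1.15e-08) and -5.09 in WT (adjusted p = 5.58e-09). With PBS it had 2.06 ± 0.549 CPM in Fes-/- and 2.73 ± 0.448 CPM in WT macrophages. With LPS it had 0.0875 ± 0.0347 CPM in Fes-/- and 0.0792 ± 0.0278 CPM in WT macrophages.

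The 16 glucocorticoid receptor target genes split. With LPS 8 rose and 6 fell in Fes-/- and 7 rose and 6 fell in WT, with a median of 0.99 in Fes-/- and 0.64 in WT, and with the library total 5 rose and 7 fell in Fes-/- (median 0.05) and 6 rose and 7 fell in WT (median -0.27). Dusp1, a phosphatase of MAP kinases that Toll-like receptor signalling also induces, had 1498 ± 111 CPM in Fes-/- LPS macrophages, against 20.5 ± 2.69 in Fes-/- PBS macrophages, and 1536 ± 158 CPM in WT LPS macrophages, against 17.7 ± 1.57 in WT PBS macrophages. Errfi1, a feedback inhibitor of the EGF receptor (5.19 in Fes-/-, 5.68 in WT), and Mt2, a metallothionein (4.71 in Fes-/-, 5.54 in WT), rose with it. In the other direction, and named after their values were seen, were Tsc22d3, which encodes the glucocorticoid-induced leucine zipper, and the clock gene Per1. Tsc22d3 had 3.28 ± 0.348 CPM in Fes-/- LPS macrophages, against 61.7 ± 8.20 in Fes-/- PBS macrophages, and 3.26 ± 0.688 CPM in WT LPS macrophages, against 79.9 ± 16.6 in WT PBS macrophages (log2 fold change -4.23, adjusted p = 1.31e-10 in Fes-/-, and -4.61, adjusted p = 7.11e-11 in WT). Per1 had a log2 fold change of -3.11 in Fes-/- and -3.31 in WT.

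**Figure D5:**
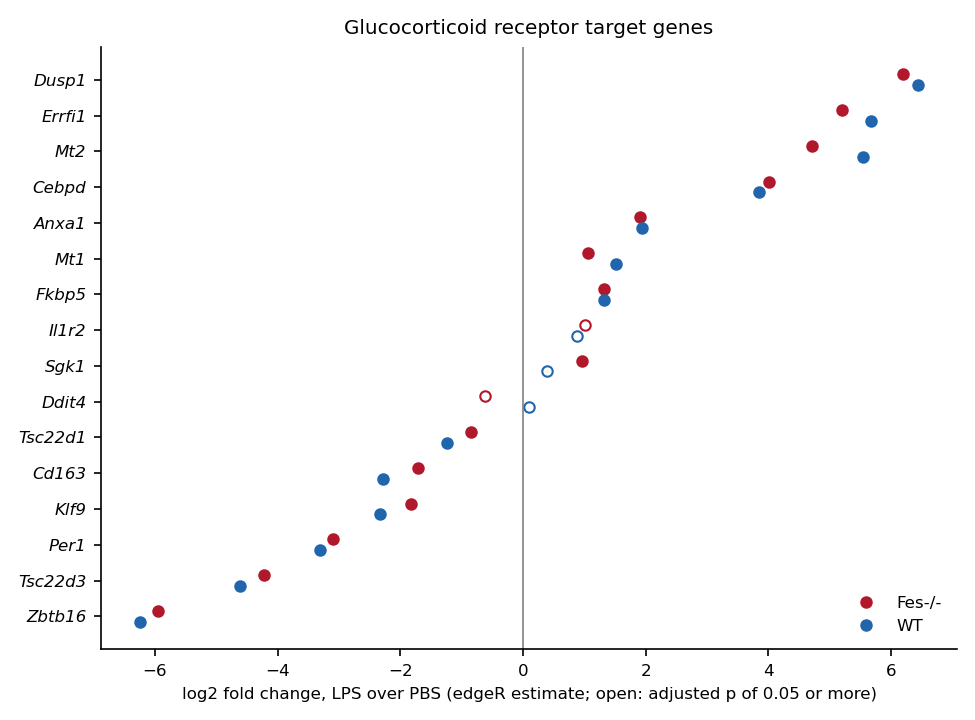
Log2 fold change of LPS over PBS for the 16 glucocorticoid receptor target genes in Fes-/- and WT macrophages, with open points for genes not called. Dusp1, Errfi1 and Mt2 are among the risers and Tsc22d3 and Per1 among the fallers in both genotypes.

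Of the 8 chaperones that hold the glucocorticoid receptor, 5 rose and 1 fell in each genotype, while with the library total 1 rose and 4 fell. Their median was 0.58 in Fes-/- and 0.56 in WT with TMM, and -0.36 in Fes-/- and -0.35 in WT with the library total. Stip1, the HSP70 to HSP90 adaptor, rose (1.45 in Fes-/-, 1.62 in WT), as did Fkbp5, an HSP90 co-chaperone that lowers hormone binding and is itself a glucocorticoid target (1.33 in Fes-/-, 1.32 in WT), although Fkbp5 was no longer called with the library total (0.39, adjusted p = 0.116 in Fes-/-, and 0.41, adjusted p = 0.102 in WT). Hsp90aa1 had a log2 fold change of 0.91 in Fes-/- and 0.92 in WT, and with the library total it was -0.03 in Fes-/- and 0.01 in WT.

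Genes that make, carry or degrade receptor ligands gave 4 rises and 3 falls in Fes-/- and 4 rises and 4 falls in WT among 12 tested, and with the library total 3 rises and 6 falls in Fes-/- and 3 rises and 5 falls in WT. Their median was -0.12 in Fes-/- and -0.16 in WT. Ptgs2, the cyclooxygenase of prostaglandin synthesis, had 2964 ± 386 CPM in Fes-/- LPS macrophages, against 0.289 ± 0.203 in Fes-/- PBS macrophages, and 2744 ± 379 CPM in WT LPS macrophages, against 0.383 ± 0.210 in WT PBS macrophages. Dhrs3, a retinaldehyde reductase that is also a retinoic acid target and counted in both lists, had a log2 fold change of -2.43 in Fes-/- and -2.71 in WT. Of 8 retinoic acid target genes tested 3 rose and 4 fell in each genotype, and with the library total 3 rose and 5 fell in Fes-/- and 2 rose and 5 fell in WT. The median of these targets was -1.33 in Fes-/- and -1.35 in WT. Cd38, an NAD-consuming ectoenzyme (5.34 in Fes-/-, 5.72 in WT), and Tgm2, tissue transglutaminase (2.11 in Fes-/-, 2.31 in WT), were among the risers. Only 2 of 7 vitamin D target genes were tested, Cd14, the LPS co-receptor (2.78 in Fes-/-, 2.902 in WT), and Spp1, osteopontin (1.23 in Fes-/-, 1.10 in WT), and both rose, Spp1 no longer being called with the library total.

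Between genotypes the 90 different genes of these lists gave no call by edgeR with the filter on low counts. Under LPS 0 were called (6 at an unadjusted p under 0.05, 0 by DESeq2), under PBS 0 (3 unadjusted, 0 by DESeq2), and for the difference of the LPS effects 0 (5 unadjusted, 0 by DESeq2). Of all genes, 6.52% under LPS, 3.83% under PBS and 2.94% for the difference had an unadjusted p under 0.05. Without the filter on low counts edgeR called 6 of them under LPS (Fabp5, Sgk1, Ddit4, Mt2, Hdac7 and Fkbp5), 4 under PBS (Tsc22d3, Fabp5, Fabp4 and Mt2) and 2 for the difference (Sgk1 and Mt2), named after their values were seen. Over all 28358 genes with a count, that setting called 358 under LPS, 315 under PBS and 90 for the difference. With the filter these were 17, 13 and 3. Fabp5, a fatty acid carrier, had the smallest adjusted p of these genes without the filter, with a log2 difference of -0.76 under LPS and -0.82 under PBS. With the filter its adjusted p by edgeR was 0.813 under LPS and 0.9745 under PBS. Its libraries spread widely, with 72.9 ± 26.4 CPM in Fes-/- LPS against 125.5 ± 41.5 in WT LPS macrophages (SD). With PBS it had 75.6 ± 40.0 CPM in Fes-/- against 132 ± 40.9 in WT macrophages.

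The genes whose pattern over the 12 libraries was most like each receptor were found among 12745 tested genes by the root mean square difference of centred log2 CPM, given here in log2 units. For Nr3c1 they were Sertad2 (0.0657) and Ccdc71l (0.0678), for Pparg Setdb1 (0.0698) and Crot (0.0698), and for Rxra Dnmbp (0.14) and Kdm2b (0.147). Crot encodes a peroxisomal carnitine acyltransferase and Setdb1 a histone H3 lysine 9 methyltransferase. For Ppard they were Slc38a9 (0.0774) and Rogdi (0.0976), for Rara Zc3h3 (0.0767) and R3hdm4 (0.0879), and for Vdr Purg (0.141) and Dnal4 (0.159). For Nr4a1 they were Card6 (0.093) and Vamp2 (0.0945), and for Nr4a2 Prpf4 (0.135) and Med21 (0.138). Nr4a3 had no close match, its nearest being Tgtp1, an interferon-inducible GTPase, at 0.453 and Zfp811 at 0.563. The likeness is a description over libraries that share the LPS effect.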

How the data were processed

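Raw counts per Ensembl gene and TPM values were used as deposited by the authors, in 12 columns, 1 per library. The submitters' processing notes name DESeq2 1.34.0 and R 4.1.12 beside STAR 2.7.8a and Picard 2.9.0, and the builds GRCm38 and mm9, without roles. The counting program and whether it used strand are not given in the sources used here. Coordinates are from GENCODE M21 on GRCm38: the gene lengths implied by the deposited counts and TPM were within 1% of its exon lengths for 98.6% of 9482 genes. Promoter sequences are from RefSeq.

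The test on counts was that of edgeR 4.0.16 under R 4.3.3 (filterByExpr, TMM, 1 mean per group over 12 libraries, 8 residual degrees of freedom, robust quasi-likelihood F test, two-sided). Benjamini-Hochberg adjustment ran over 15801 genes, with calls at an adjusted p under 0.05. Alternatives were DESeq2 1.42.0, RLE factors, the library total alone, no filter, a filter of 1 CPM in 3 libraries, the 6 libraries compared, limma 3.58.1 on log2(TPM + 1) and log2(TPM + 0.1), a replicate block, and each library left out. Python 3.11.15 with matplotlib 3.10.9 made the plots. Simulated counts with known changes were used to check the edgeR steps.

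Named genes were the 9 receptors, per list the 3 called genes with the largest LPS change in WT and at least 5 CPM in some group, any list gene called between genotypes, and the 2 nearest genes per receptor. A gene that met this rule is not reported here. Receptors and lists were chosen with earlier results of these data known. Replicate numbers are from the titles: deviations of same-numbered PBS and LPS libraries correlated at 0.068, 0.089 and 0.189 in Fes-/- and 0.141, 0.166 and 0.137 in WT. Differently numbered ones reached at most 0.06 in Fes-/- and -0.038 in WT, so the separation was clear in WT and narrow in Fes-/-. Across genotypes the same number did not pair libraries, and the largest value, 0.22, joined WT PBS 2 and Fes-/- PBS 3. No 2 libraries of the same group agreed within sampling noise.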

Additional observations from a re-analysis of the deposited data

How the results depend on the processing

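No call of a receptor reversed in the LPS comparisons under the 21 settings run there. Members called ranged over 7 to 8 in Fes-/- and 8 to 9 in WT when 1 library was left out, and were 0 throughout in the genotype comparisons and the difference of LPS effects. Genes called then ranged over 11014 to 11848 for LPS in Fes-/-, 11074 to 11743 for LPS in WT, 12 to 19 for Fes-/- against WT under LPS, 12 to 15 under PBS and 2 to 3 for the difference. Without a filter those last 3 counts were 358, 315 and 90, with 1 receptor, Nr4a3, called in each (adjusted p = 8.02e-05 under LPS, 0.0311 under PBS, 0.00307 for the difference). With DESeq2 they were 38, 33 and 5, and the difference had 6 genes with limma on log2(TPM + 1) and 5 on log2(TPM + 0.1). With the replicate number as a block, 11877 genes were called for LPS in Fes-/- and 11862 in WT. Between genotypes 12 were called under LPS and 12 under PBS, and 4 for the difference. The block changed no receptor call (8, 9, 0, 0 and 0). For the LPS comparisons and the difference it joined same-numbered libraries within a genotype. For the genotype comparisons it joined same numbers across genotypes, where the number did not pair libraries, so those counts are no check of pairing. The cause of the changes between settings was not tested.

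Signs turned in 32 cases, each of an uncalled value, and all but that of Nr4a1 were near 0. The Nr4a1 difference of the LPS effects was 0.22 in the main fit and -0.05 without WT PBS replicate 2. Fes-/- minus WT under LPS, Pparg was -0.0008 with RLE factors and -0.0686 to 0.048 with 1 library left out, and Ppard was 0.0019 with the library total, 0.0214 without a filter, 0.0029 on TPM + 1, 0.0026 on TPM + 0.1 and -0.0909 to 0.0501 with 1 library left out. Vdr was -0.0541 to 0.2083 with 1 library left out. Under PBS, Nr3c1 was 0.0058 with the library total, 0.0221 on TPM + 1 and 0.0225 on TPM + 0.1, Rxra -0.0006 with DESeq2 and -0.0708 to 0.087 with 1 library left out, and Rara -0.2228 to 0.0545. For the difference, Rara was 0.0067 without a filter and -0.1726 to 0.1089, and Nr4a1 -0.0505 to 0.3848, with 1 library left out. Vdr had no value under the 1 CPM filter, and Nr4a3 between genotypes under PBS none in the fit of 6 libraries. Depth limits Vdr and Nr4a3 with PBS, which had at most 59 and 7 counts in a library.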
